A study of Homo sapiens with 8 samples.

Results

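The genes described here are 51 proteins of the nucleolus and of ribosome assembly, taken by gene symbol from the platform's annotation of a 3′ expression array. Of these, 49 had at least 1 probe set annotated to that symbol alone, and 2 large subunit factors, GNL3 and EBNA1BP2, had none. All 49 reached the expression floor and were tested among 11383 genes, out of 18132 genes with such a probe set. By role they are 7 genes of RNA polymerase I transcription, 5 of nucleolar organisation, 8 of the small nucleolar ribonucleoproteins (snoRNPs), 13 small subunit factors and 18 large subunit factors, of which 16 were measured.

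Total RNA came from hepatocellular carcinoma lines kept in culture for 48 h with 10 μM of the compound CU27 or with its vehicle, DMSO. Hep3B and Huh7.5.1 are both established human hepatoma lines, so each group is cultures of 1 line. The 3 groups of 2 arrays were Hep3B with DMSO (replicates 2 and 3), Huh7.5.1 with DMSO (replicates 1 and 2) and Huh7.5.1 with CU27 (replicates 1 and 2). The labels call the replicates biological without saying what separated them. The p-values set each difference against the spread between replicate arrays, pooled over all 3 groups. That spread need not be the one between independent cultures. The small number of arrays limits the precision.

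Ribosomes are built in the nucleolus. RNA polymerase I transcribes the ribosomal DNA into 1 long precursor, with UBTF and the selectivity factor SL1 bound at the promoter and RRN3 recruiting the enzyme. Box C/D snoRNPs then guide methylation of the precursor, and box H/ACA snoRNPs guide the conversion of uridine to pseudouridine. Separate sets of assembly factors fold, cut and export the small and the large subunit, and many hepatocellular carcinomas have enlarged nucleoli. MYC and its relatives are known activators of many of these genes through the E-box, CACGTG.

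Before the results, 2 features of the deposited values matter. The columns labelled Hep3B with CU27 are not used: at all 49395 probe sets, replicate 2 equalled 3 times Hep3B DMSO replicate 2 minus 2 times replicate 3, and replicate 3 equalled 2 times replicate 2 minus replicate 3, within 1e-06. The Hep3B DMSO arrays held exactly equal values at 1086 probe sets, among them those of POLR1A, POLR1B and PES1. Values are log2 signal as deposited, and an array's median over all probe sets was 5.82 to 5.85 in Hep3B and 6.23 to 6.27 in Huh7.5.1. All 10 hepatocyte markers reached the floor of 6.11 in every group, with group means of 9.84 to 14.4. Of the leukocyte markers, CD68 went from 7.04 and 6.67 with DMSO to 8.86 and 9.34 with CU27 in Huh7.5.1, while PTPRC lay below the floor in every group. CD14 fell by 0.69 ± 0.18 (limma adjusted p = 0.0214), from a mean of 4.71 to a mean of 4.02, below the floor in both Huh7.5.1 groups. It was tested only because its Hep3B mean reached the floor. Of 4 endothelial and 6 fibroblast and stellate markers, 1 and 2 were tested, and none passed the test with CU27.

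The upstream promoter sequences of 6 of these genes are shown, picked because each holds an ETS-type match, so its recurrence in them is by choice. Each line gives the 80 bases just before the first start site that the RefSeq table (GRCh38.p14) lists for the gene, 5′ to 3′ on the gene's strand. Capitals mark CCGGAAG or its reverse complement CTTCCGG, and in NOP10 also the E-box CACGTG. The same stretches of NOP56 and DKC1, not shown, held neither match. Those before the other start site listed for GAR1 and for DDX21 held no ETS-type match. The positions are WDR3 chr1:117929659-117929738 (plus strand), GAR1 chr4:109815430-109815509 (plus), DDX21 chr10:68956090-68956169 (plus), NOC3L chr10:94362940-94363019 (minus), GRWD1 chr19:48445903-48445982 (plus) and NOP10 chr15:34343137-34343216 (minus).
WDR3: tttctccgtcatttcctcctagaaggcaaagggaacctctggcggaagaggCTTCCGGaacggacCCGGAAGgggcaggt
GAR1: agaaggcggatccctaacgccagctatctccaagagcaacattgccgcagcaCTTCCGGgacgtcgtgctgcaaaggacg
DDX21: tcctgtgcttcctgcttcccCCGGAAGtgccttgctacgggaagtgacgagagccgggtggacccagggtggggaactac
NOC3L: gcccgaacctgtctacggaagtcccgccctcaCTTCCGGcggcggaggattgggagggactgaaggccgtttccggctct
GRWD1: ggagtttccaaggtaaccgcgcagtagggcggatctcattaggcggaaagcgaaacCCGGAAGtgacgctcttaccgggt
NOP10: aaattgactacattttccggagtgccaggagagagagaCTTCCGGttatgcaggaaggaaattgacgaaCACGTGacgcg

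RefSeq promoter windows of 300 bases, 250 before to 50 after a start site, were found for 43 of the 51 genes. Some genes have several windows, and a gene counts if any of its windows holds a match. Shares of all windows are per window, so they are not in the same unit as shares of genes. The ETS-type match, searched on both strands, lay in the windows of 21 of the 43 (48.8%), against 22.2% of 9438 tested genes with a window and 10.3% of all 35116 windows. The E-box, which reads the same on both strands and shares no bases with the ETS-type match in the sequences shown, lay in 19 of the 43 (44.2%), against 12.8% of tested genes and 7.26% of all windows. Most E-boxes of this set lay after the start site. Counting only the 50 bases from the start site on, 14 of the 43 (32.6%) held one, against 1.57% of tested genes. In the 250 bases before the start site the shares were 14.0% and 11.7%.

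The matches were also counted by response to CU27. An E-box lay in 5 of 13 genes that fell (38.5%) and in 12 of 28 other tested members (42.9%). The ETS-type match lay in 8 of 13 (61.5%) and in 12 of 28 (42.9%). These are counts of letters, with no test and no measure of binding. Of the sequences printed, WDR3, GAR1, DDX21, NOC3L and GRWD1 belong to genes that fell, and NOP10 to a gene that did not pass the test.

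In Huh7.5.1 cells given CU27, 16 of the 49 measured genes fell (32.7%) and 3 rose (6.12%), at an adjusted p below 0.05 in limma. Over all tested genes, 12.1% fell and 12.6% rose. The median difference was -0.24 log2 over these genes and 0.02 over all genes. Genes that fell were found in each of the 5 roles: 4 of 8 snoRNP proteins, 6 of 16 large subunit factors, 2 of 5 nucleolar organisers, 2 of 13 small subunit factors and 2 of 7 Pol I genes. The small subunit share, 15.4%, was near the 12.1% of all genes, and 2 Pol I genes also rose. Role medians were -0.42 for the large subunit, -0.34 for the snoRNPs, -0.33 for nucleolar organisation, -0.17 for the small subunit and 0.05 for Pol I. Differences between roles were not tested. The hepatocyte markers also moved with CU27: all 10 had estimates below 0 and 6 fell, with a median of -0.54, among them AHSG (-1.40), APOB (-1.28), TTR (-0.94) and SERPINA1 (-0.66). Their part in the counts above was not tested. In bulk RNA, fewer cells of a kind and less RNA per cell cannot be told apart.

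These counts rest on few arrays. Left-out arrays changed the 16 falls to 3 without DMSO replicate 2, 6 without DMSO replicate 1, 9 without CU27 replicate 1 and 12 without CU27 replicate 2, and to 14 without either Hep3B array. The 3 rises became 1 without either DMSO array of Huh7.5.1 or without CU27 replicate 2, and 2 otherwise. The CU27 arrays differed from each other: their median over these genes stood 0.89 (replicate 1) and 1.05 (replicate 2) above the median of all tested genes, against 1.15 and 1.10 in the DMSO arrays.

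**Figure D1:**
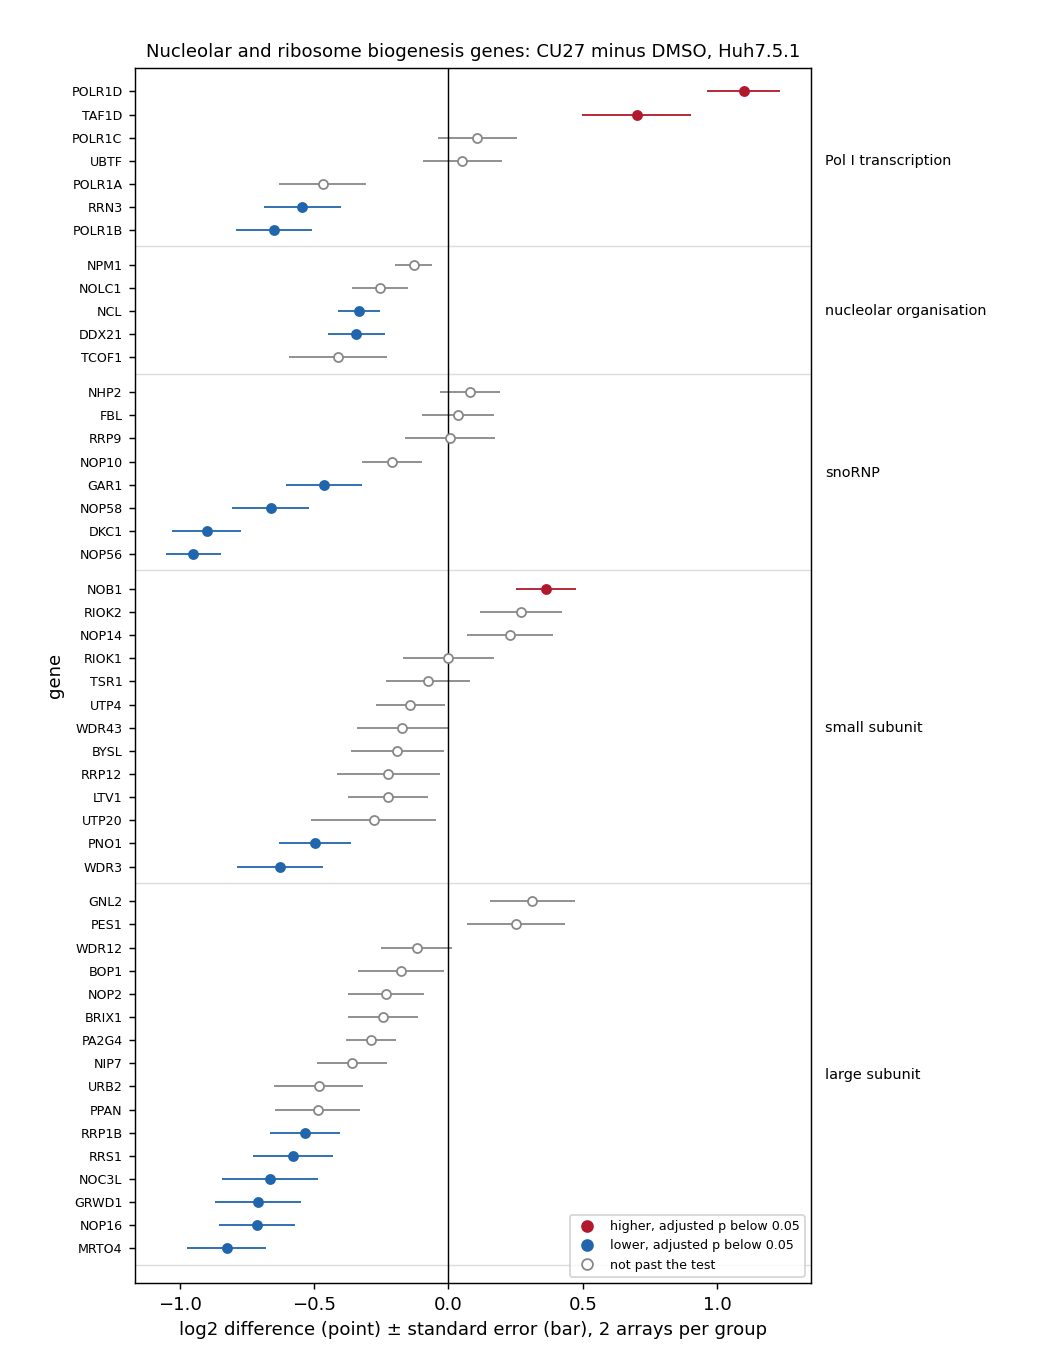
Each row is a gene, grouped by role, and the horizontal axis is the log2 difference of CU27 minus DMSO in Huh7.5.1, with the point at the estimate and the bar at ± 1 standard error. Filled points are past the test, 3 higher and 16 lower, and the Pol I genes spread from -0.65 (POLR1B) to 1.10 (POLR1D).

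Of the 8 snoRNP proteins, 4 fell and 4 did not pass the test, and differences between proteins of a particle were not tested. NOP56 and NOP58, the paired core proteins of box C/D particles, fell, and the methyltransferase of the same particle, FBL, did not pass the test. NOP56 read 12.42 and 12.25 with DMSO and 11.34 and 11.43 with CU27, so that it fell by 0.95 ± 0.10 (SE, limma adjusted p = 0.000842), a 1.93-fold difference. NOP58 read 12.51 and 12.43 with DMSO and 11.74 and 11.88 with CU27, and fell by 0.66 ± 0.14 (limma adjusted p = 0.0119). In both genes the CU27 arrays lay wholly below the DMSO arrays. FBL read 11.83 and 12.06 with DMSO and 11.79 and 12.18 with CU27, a difference of 0.03 ± 0.13 with overlapping groups. RRP9, which binds the U3 snoRNA in the particle that cleaves the precursor, read 8.06 and 7.69 against 7.84 and 7.92, a difference of 0.01 ± 0.17.

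Of the box H/ACA proteins, DKC1, the pseudouridine synthase, fell by 0.90 ± 0.13 (limma adjusted p = 0.00221), from 11.24 and 11.27 to 10.24 and 10.48. GAR1, which helps release the substrate RNA, read 9.82 on both DMSO arrays and 9.22 and 9.49 with CU27, and fell by 0.46 ± 0.14 (limma adjusted p = 0.0416). The other two core proteins did not pass the test. NHP2 differed by 0.08 ± 0.11. NOP10 read 11.31 and 11.32 with DMSO and 10.97 and 11.24 with CU27, a difference of -0.21 ± 0.11 (adjusted p = 0.200) with the CU27 arrays also below both DMSO arrays. DKC1 passed under every alternative run here, and NOP56 under the 14 in which it could be tested. All 4 probe sets of NOP56 are marked as cross-hybridising or shared, so it was absent from the fit without such probe sets. NOP58 was not past the test without DMSO replicate 1 or 2 (adjusted p from 0.0630 to 0.0675), and GAR1 was not past it without any 1 of 5 arrays, all but CU27 replicate 2 (adjusted p from 0.0706 to 0.174).

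**Figure D2:**
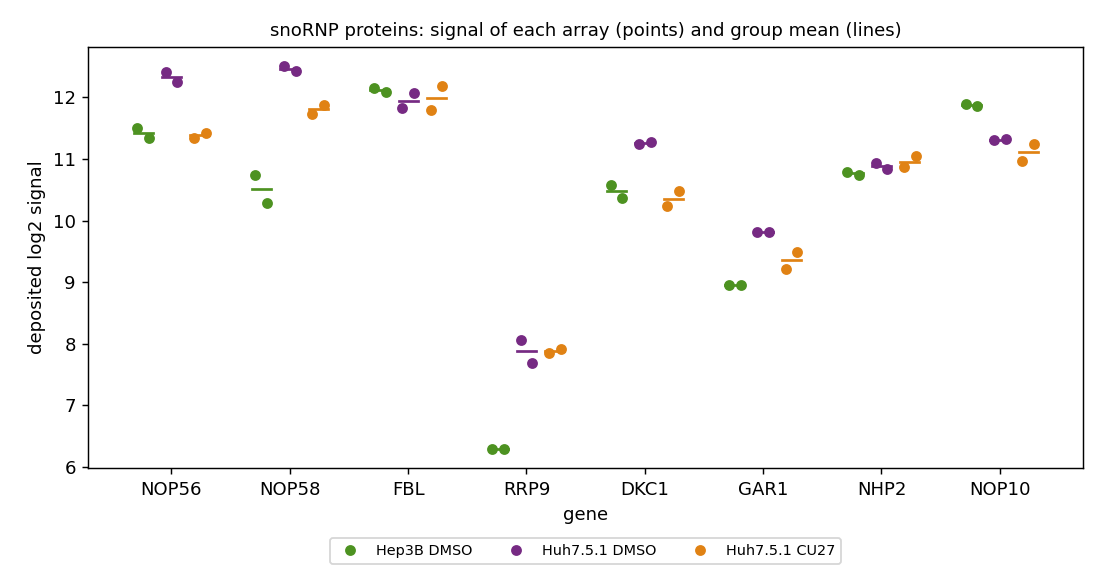
The vertical axis is the deposited log2 signal, with a point for each array and a line at each group's mean, for the 8 snoRNP proteins, coloured by line and treatment. NOP56, NOP58, DKC1, GAR1 and, by a smaller gap, NOP10 sit lower in both CU27 arrays than in both Huh7.5.1 DMSO arrays, while FBL, RRP9 and NHP2 overlap.

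Large subunit factors held 6 falls and no rise. MRTO4, a homologue of the stalk protein that holds its place on the pre-ribosome, fell by 0.82 ± 0.15 (limma adjusted p = 0.00545), from 9.42 and 9.37 to 8.43 and 8.71. NOP16 read 10.22 and 10.24 with DMSO and 9.45 and 9.58 with CU27, and fell by 0.71 ± 0.14 (adjusted p = 0.00816). GRWD1, a chaperone of the ribosomal protein RPL3, fell by 0.71 ± 0.16 (adjusted p = 0.0135), from 8.85 and 8.72 to 7.95 and 8.20. In each of these genes the groups were separate.

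NOC3L, which takes part in moving the pre-ribosome out of the nucleolus, fell by 0.66 ± 0.18 (limma adjusted p = 0.0262), from 8.84 and 9.02 to 8.22 and 8.32. RRS1, a factor that brings the 5S particle into the large subunit, fell by 0.58 ± 0.15 (adjusted p = 0.0224), from 9.75 and 9.72 to 9.02 and 9.29. RRP1B read 10.23 and 10.47 with DMSO and 9.83 and 9.80 with CU27, and fell by 0.53 ± 0.13 (adjusted p = 0.0182) at the probe set used. Its other probe set, near the floor, differed by 0.40 the other way, and the mean of both by -0.07 (adjusted p = 0.804).

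MRTO4 stayed past the test under every alternative run. NOP16 was not past it without DMSO replicate 2 (adjusted p = 0.0639), and GRWD1 without DMSO replicate 1 or 2 (0.0667 to 0.0841). NOC3L was not past it without any 1 of the 4 Huh7.5.1 arrays (0.0682 to 0.167). The same held for RRS1 without either DMSO array of Huh7.5.1 or CU27 replicate 1 (0.0732 to 0.109), and for RRP1B without DMSO replicate 2 or CU27 replicate 2 (0.0658 to 0.147).

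The other 10 measured large subunit factors did not pass the test and ranged from -0.49 (PPAN, adjusted p = 0.0532) to 0.31 (GNL2). PES1, BOP1 and WDR12, which form the PeBoW complex required for large subunit maturation, differed by 0.25 ± 0.18, -0.18 ± 0.16 and -0.12 ± 0.13. The proliferation-associated protein PA2G4 differed by -0.29 ± 0.094 (adjusted p = 0.0546), NIP7 by -0.36 ± 0.13 and URB2 by -0.48 ± 0.17. The other probe set of NIP7 stood at -0.71, outside the range given, and that of PA2G4 at -0.002. The rRNA methyltransferase NOP2 differed by -0.23 ± 0.14, and BRIX1 by -0.24 ± 0.13.

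Small subunit factors mostly did not pass the test. WDR3, a component of the U3-containing processome, fell by 0.63 ± 0.16 (limma adjusted p = 0.0225), from 9.61 and 9.57 to 8.79 and 9.14. PNO1, which docks the endonuclease NOB1 on the pre-40S particle, fell by 0.50 ± 0.13 (adjusted p = 0.0272), from 9.74 and 9.81 to 9.18 and 9.38. NOB1 itself, which makes the final cut of 18S rRNA, rose by 0.36 ± 0.11 (adjusted p = 0.0433), from 10.65 and 10.53 to 10.96 and 10.95. In these 3 genes the CU27 arrays did not overlap the DMSO arrays.

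None of these 3 calls held through every left-out array. WDR3 was not past the test without either Huh7.5.1 DMSO array or CU27 replicate 1 (limma adjusted p from 0.0771 to 0.110), nor in the mean of its 2 probe sets (-0.46, 0.102), nor without probe sets marked as cross-hybridising or shared (-0.30, 0.607). PNO1 was not past it without any 1 array but CU27 replicate 2 (0.0506 to 0.154), nor in the mean of its 3 probe sets (-0.30, 0.161). NOB1 was not past it without any 1 of the 6 arrays (0.0670 to 0.238). At the probe sets used, the other 10 ranged from -0.28 (UTP20) to 0.27 (RIOK2), with the lowest adjusted p at 0.231. They include NOP14, a processome core protein, at 0.23 ± 0.16, the export adaptor LTV1 at -0.23 ± 0.15, and BYSL, a factor bound to the pre-40S particle, at -0.19 ± 0.17. Below that range lay other probe sets of RIOK2 (-1.12, with another at 0.26), WDR43 (-0.82), LTV1 (-0.47) and NOP14 (-0.37, with another at -0.03).

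The Pol I genes moved in both directions. POLR1B, the second largest subunit of the enzyme, fell by 0.65 ± 0.14 (limma adjusted p = 0.0120), from 8.65 and 8.74 to 7.95 and 8.14. RRN3, the initiation factor, fell by 0.54 ± 0.14 (adjusted p = 0.0253), from 9.05 and 9.25 to 8.61 and 8.60. POLR1A, the largest subunit, averaged 7.84 with DMSO and 7.37 with CU27, a difference of -0.47 ± 0.16 that did not pass the test (adjusted p = 0.0631). TAF1D, a subunit of SL1, rose by 0.70 ± 0.20 (adjusted p = 0.0353), from 8.76 and 8.41 to 9.32 and 9.25.

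POLR1D, a subunit that Pol I shares with Pol III, rose by 1.10 ± 0.14 (limma adjusted p = 0.00147), from 9.04 and 8.82 to 9.99 and 10.06, at the probe set used. The gene's other probe sets did not follow it: they differed by -0.50 and 0.06, and the mean over all 3 was 0.22 (adjusted p = 0.214). POLR1C, its partner in both enzymes, differed by 0.11 ± 0.15, and UBTF by 0.05 ± 0.15. With the 4 Huh7.5.1 arrays alone, POLR1B, whose Hep3B values are equal, differed by the same -0.65 (adjusted p = 0.0278). POLR1B was not past the test without DMSO replicate 2 (adjusted p = 0.0961) or without probe sets marked as cross-hybridising or shared (-0.40, adjusted p = 0.118), and neither RRN3 (0.0520 to 0.182) nor TAF1D (0.0527 to 0.227) was past it without any 1 of the 4 Huh7.5.1 arrays.

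At the probe sets used, all 5 nucleolar organisers had estimates below 0, and 2 passed the test. Nucleolin, NCL, fell by 0.33 ± 0.077 (limma adjusted p = 0.0150), from 13.02 and 12.97 to 12.66 and 12.67. The helicase DDX21 fell by 0.34 ± 0.11 (adjusted p = 0.0441), from 12.15 and 12.19 to 11.77 and 11.89. Nucleophosmin, NPM1, differed by -0.13 ± 0.070, the phosphoprotein NOLC1 by -0.26 ± 0.11 and treacle, TCOF1, by -0.41 ± 0.18. A probe set of opposite sign was found for NPM1 (0.19) and for TCOF1 (0.45, near the floor), while their remaining ones were below 0. NCL was not past the test without either Huh7.5.1 DMSO array or CU27 replicate 2 (adjusted p from 0.0534 to 0.0926), nor DDX21 without any 1 of the 4 Huh7.5.1 arrays (0.0718 to 0.208).

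Other probe sets of the same genes give a second reading of the same RNA. Of the 19 genes past the test, 16 had another probe set that reached the floor, and in 14 of these every such probe set had the sign of the one used. The 4 probe sets of NOP56 differed by -1.18 to -0.95, and the 6 of POLR1B by -1.06 to -0.40. POLR1D and RRP1B were the exceptions. Probe sets of a gene share its RNA and are not replicates.

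**Figure D3:**
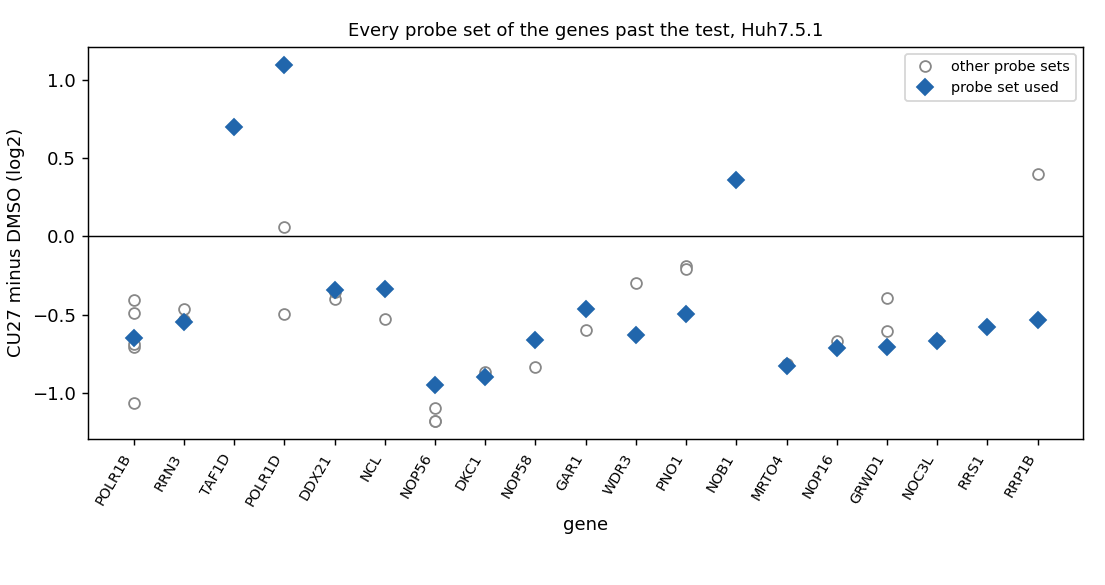
The vertical axis is the log2 difference of CU27 minus DMSO in Huh7.5.1 for every probe set of the 19 genes past the test, with diamonds at the probe set used and open circles at the others. The circles of POLR1D (-0.50 and 0.06) and RRP1B (0.40) lie away from their diamonds, while the 4 points of NOP56 lie together between -1.18 and -0.95.

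A wider list of ribosome biogenesis genes outside the 51 was read the same way. Of its 123 tested genes, 12 fell and 6 rose (9.76% and 4.88%), with a median of -0.13. Its shares in both directions were below those of all genes (12.1% and 12.6%). The nuclear exosome, which trims and degrades precursor RNA, had 2 of 13 genes that fell and none that rose. Its share of falls, 15.4%, was near that of all genes. Its cap subunit EXOSC2 fell by 1.35 ± 0.15 (limma adjusted p = 0.000842), from 8.69 and 8.74 to 7.41 and 7.31. The ring subunit EXOSC8 fell by 0.94 ± 0.15 (adjusted p = 0.00316), from 10.67 and 11.00 to 9.81 and 9.98.

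Among 12 further snoRNP genes, 3 fell (25%, against 12.1% of all genes) and none rose. RUVBL1, an ATPase that helps assemble box C/D particles, fell by 1.03 ± 0.18 (limma adjusted p = 0.00474), from 9.90 and 10.21 to 8.80 and 9.25. NAT10, which acetylates 18S rRNA, fell by 0.96 ± 0.18 (adjusted p = 0.00621, and 0.0598 without DMSO replicate 2), from 8.68 and 8.85 to 7.58 and 8.03. The third was PIH1D1 (-0.44). In the large subunit 3 of 49 fell (6.12%), MAK16, LYAR (-0.61) and RSL24D1 (-0.46). There 4 rose (8.16%, against 12.6% of all genes), led by DDX54 (0.60), EFL1 (0.58) and NOP53 (0.48). MAK16 fell by 0.87 ± 0.15 (adjusted p = 0.00426), from 9.35 and 9.45 to 8.44 and 8.61. In the small subunit DCAF13 (-0.77), RRP7A (-0.68) and DIMT1 (-0.58) fell (7.89% of 38) and TBL3 (0.58) and DDX49 (0.47) rose (5.26%). In Pol I transcription NOL11 (-0.54) fell (9.09% of 11). Each of these named only by its difference was not past the test without at least 1 array, and without CU27 replicate 2 DDX54, EFL1 and DDX49 stood at 0.39, 0.37 and 0.31. EXOSC2, EXOSC8, RUVBL1 and MAK16 stayed past the test with each array left out, and MAK16 alone of these was not past it without probe sets marked as cross-hybridising or shared (-0.54, adjusted p = 0.0521).

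Subunits of the other nuclear polymerases were set beside the Pol I subunits, together with 5 that are also part of Pol I. None of 7 Pol II subunits passed the test, and they ranged from -0.34 to 0.37. Of 5 subunits common to the 3 polymerases, POLR2F rose by 0.50 ± 0.11 (limma adjusted p = 0.0147), and of 9 Pol III subunits POLR3D rose by 0.71 ± 0.17 (adjusted p = 0.0172). Together 2 of 21 rose (9.52%) and none fell, against 12.6% and 12.1% of all genes. POLR2F was not past the test without DMSO replicate 2 (0.112) or CU27 replicate 2 (0.0694) or in the mean of its 2 probe sets (0.25, adjusted p = 0.169), nor POLR3D without any 1 Huh7.5.1 array but CU27 replicate 1 (0.0546 to 0.115). The Pol III subunits ranged from -0.60 (POLR3B, adjusted p = 0.0567) to 0.71, and POLR3K stood at -0.45 (adjusted p = 0.0514). Differences between the polymerases were not tested.

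MYC and MYCN, of the family known to activate many of these genes, were measured on the same arrays. MYC read 10.71 and 10.90 with DMSO and 10.16 and 10.31 with CU27, and fell by 0.56 ± 0.13 (limma adjusted p = 0.0138, and 0.116 without DMSO replicate 2). MYCN read 9.12 and 9.47 with DMSO and 8.23 and 8.41 with CU27, and fell by 0.97 ± 0.24 (adjusted p = 0.0186), and was not past the test without DMSO replicate 2 or either CU27 array (0.0604 to 0.135). MYCN was added after its values were seen. Their part in the other changes was not tested.

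Many snoRNAs are processed from introns of host genes. In the RefSeq table, 9 of the 49 measured genes had a snoRNA gene within their span, without regard to strand, against 3.56% of 11379 matched tested genes. They are TAF1D with 8, NOP56 with 5, NOP58 with 4, NCL and WDR43 with 3 each, DKC1, TSR1 and PPAN with 2 each, and UTP20 with 1. Of the 9, NOP56, NOP58, NCL and DKC1 fell with CU27, TAF1D rose, and 4 did not pass the test. The values are those of probe sets annotated to the host genes, and the snoRNAs were not analysed here.

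Untreated lines also differed in these genes. The Huh7.5.1 DMSO arrays serve in both comparisons, so values are set side by side and no overlap is drawn between them. The median tested gene was 0.20 log2 higher in Huh7.5.1 than in Hep3B, and differences are given after each array was centred on its own median over tested genes. On this relative scale 28 of the 49 genes were higher in Huh7.5.1 and 12 lower (57.1% and 24.5%), against 31.5% and 30.8% of all genes. The median was 0.46 over these genes and 0.02 over all.

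Of the 7 Pol I genes, 5 were lower in Huh7.5.1 and 2 higher, with a median of -0.43, while of the remaining 42 genes 26 were higher and 7 lower. Of these 5, POLR1A and POLR1B held equal values in both Hep3B arrays, so those arrays give them no spread. POLR1D was lower only at the probe set used, with its others at 0.73 and 0.87. The nucleolar organisers had 4 of 5 higher, the snoRNPs 5 of 8 higher and 2 lower, the small subunit 7 of 13 higher and 3 lower, and the large subunit 10 of 16 higher and 2 lower. The difference between roles was not tested. The wider list did not repeat the Pol I direction: 5 of its 11 Pol I genes were higher in Huh7.5.1 and 2 lower, with a median of 0.34. Of 21 subunits of the other polymerases or common to them, 8 were lower and 2 higher, with a median of -0.25. On the deposited scale 32 of the 49 were higher and 7 lower, against 41% and 22.9% of all genes, and the Pol I genes stood at 2 higher and 2 lower, so that POLR1A, POLR1B and POLR1D no longer passed the test. With the medians over all probe sets set equal instead, 19 of the 49 were higher and 14 lower, against 23.5% and 39.6% of all genes.

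**Figure D4:**
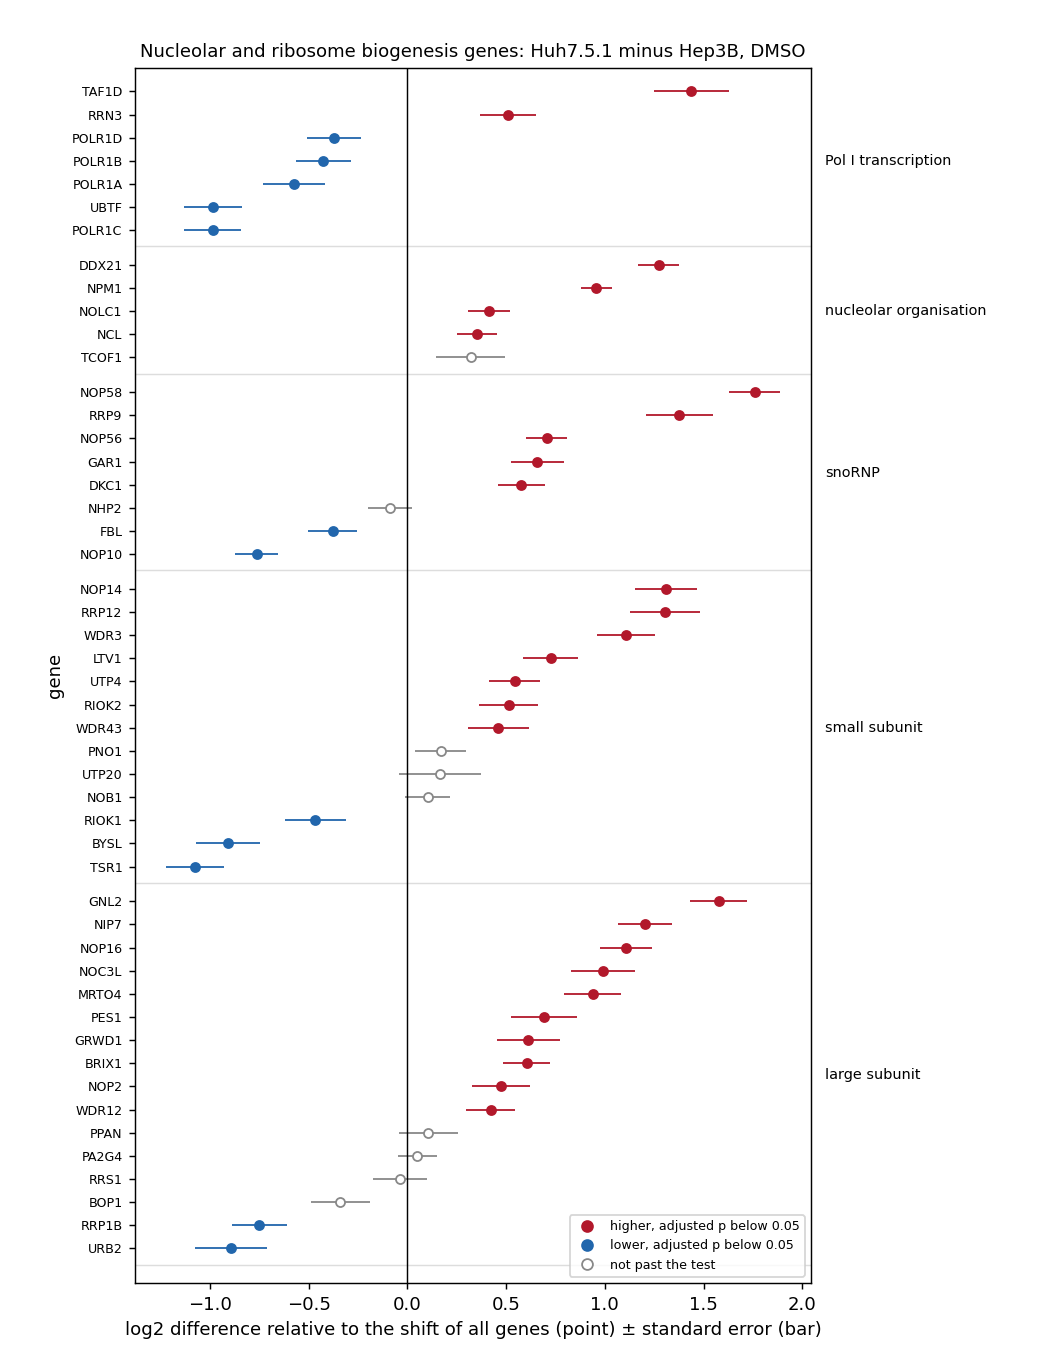
Each row is a gene, grouped by role, and the horizontal axis is the log2 difference of Huh7.5.1 minus Hep3B, both with DMSO, after centring each array, with bars at ± 1 standard error. NOP58 (1.76) and GNL2 (1.58) stand furthest to the right, and 5 of the 7 Pol I genes lie left of 0, POLR1D only at the probe set used.

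NOP58 read 10.73 and 10.28 in Hep3B and 12.51 and 12.43 in Huh7.5.1, a relative difference of 1.76 ± 0.13 (limma adjusted p = 1.73e-06). GNL2, a nucleolar GTPase of large subunit assembly, read 8.47 and 8.11 against 10.11 and 10.03, a relative difference of 1.58 ± 0.14 (adjusted p = 6.97e-06). TAF1D read 7.21 and 6.68 against 8.76 and 8.41, a relative difference of 1.44 ± 0.19 (adjusted p = 9.35e-05). In all 3 the lines were separate by more than the gap between replicates of either line.

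RRP9 read 6.29 and 6.30 in Hep3B, just above the floor, and 8.06 and 7.69 in Huh7.5.1, a relative difference of 1.38 ± 0.17 (limma adjusted p = 5.77e-05). NOP14 read 6.50 and 6.25 against 7.99 and 7.78, a relative difference of 1.31 ± 0.16 (adjusted p = 4.81e-05). RRP12, which takes part in the export of both subunits, read 8.14 and 8.11 against 9.48 and 9.79, a relative difference of 1.30 ± 0.18 (adjusted p = 0.000114). None of these 3 passed the test with CU27, where they differed by 0.01, 0.23 and -0.22.

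In the other direction, TSR1, a GTPase-like factor of the late pre-40S particle, read 10.22 and 10.23 in Hep3B and 9.37 and 9.33 in Huh7.5.1, a relative difference of -1.08 ± 0.15 (limma adjusted p = 0.000119). Its other probe set stood at 0.33. POLR1C read 8.73 and 8.72 against 7.85 and 8.04, a relative difference of -0.99 ± 0.15 (adjusted p = 0.000198). UBTF read 8.48 and 8.51 against 7.81 and 7.62, a relative difference of -0.98 ± 0.15 (adjusted p = 0.000234). Every UBTF probe set pointed the same way, and the call was lost without the probe sets marked as cross-hybridising or shared (-0.27, adjusted p = 0.143).

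BYSL read 9.00 and 9.02 in Hep3B and 8.31 and 8.30 in Huh7.5.1, a relative difference of -0.91 ± 0.16 (limma adjusted p = 0.000690). URB2 read 7.30 and 7.58 against 6.85 and 6.65, a relative difference of -0.89 ± 0.18 (adjusted p = 0.00155). NOP10 read 11.89 and 11.86 against 11.31 and 11.32, a relative difference of -0.76 ± 0.11 (adjusted p = 0.000165). Thus within the box H/ACA particle NOP10 was lower in Huh7.5.1, DKC1 (0.58) and GAR1 (0.66) were higher, and NHP2 did not pass the test (-0.09).

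The 9 genes that did not pass the test between lines were TCOF1, NHP2, UTP20, NOB1, PNO1, BOP1, RRS1, PA2G4 and PPAN, from -0.34 (BOP1) to 0.32 (TCOF1). Among genes past the test, probe sets of opposite sign were found, besides TSR1, for POLR1D (0.73 and 0.87, against -0.37 at the one used), RIOK1 (0.15 against -0.47) and GRWD1 (-0.54 and -0.49 against 0.61). Among the 9 that did not pass, PNO1 (-0.62 and -0.81 against 0.17) and NHP2 (0.09 against -0.09) also had one. Of the 12 genes given above with values in every array, all but UBTF stayed past the test under every alternative in which they could be tested. TAF1D, RRP9, BYSL and URB2 could be tested in 11 of the 12 alternatives. RRP9 and URB2 lay below the stricter floor (8.08), and BYSL below the floor in the mean of its probe sets. The only probe set of TAF1D is marked as cross-hybridising.

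RNA quality differed between the lines along with these values. The 3′ minus 5′ log2 signal of the ACTB control probe sets was 2.28 and 1.60 in Hep3B and 0.94 and 1.06 in Huh7.5.1 with DMSO, and that of GAPDH was 0.43 and 0.32 against 0.07 and 0.09. With CU27 the values in Huh7.5.1 were 0.98 and 1.21 for ACTB and 0.05 and 0.14 for GAPDH. The part of RNA quality in the differences between lines was not tested.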

How the data were processed

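Total RNA was labelled with a 3′ in vitro transcription kit, per the labels' protocols. The deposited table holds log2 signal (the log base was read from the range), and MAS5 is named without a version in the submitters' processing notes. How it scaled the arrays is not stated in the labels. Of 49395 probe sets, 44988 had 1 gene symbol, 1832 several and 2473 none, in the platform annotation, and 102 were controls. Each gene was read at its probe set of highest mean. Genes reaching 6.11 (the 50th percentile of all values) in at least 1 group were tested. limma 3.58.1 (R 4.3.3; lmFit, contrasts, eBayes with an intensity trend) was fitted on 6 arrays in 3 groups, two-sided, with Benjamini-Hochberg adjustment over 11383 genes at 0.05. With 2 arrays a group, the smallest p of an exact permutation test is 0.333. Lines were compared on values centred per array. The fit was tested on simulated data.

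The members, lists and tests were chosen with earlier results of these data known. Values in every array are given for members past the test with CU27, and for 6 members in each direction with the largest line difference. Of the wider list, at most 3 genes a role and direction are named. Alternatives covered the floor, the probe set rule, the normalization, the trend, the arrays used and each array left out.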

Additional observations from a re-analysis of the deposited data

How the results depend on the processing

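With 1 array left out, the number of genes past the test with CU27 ranged from 893 to 2889 (2809 in all), the ribosome biogenesis genes that fell from 3 to 14, those that rose from 1 to 2, and their median from -0.36 to -0.18. Without probe sets marked as cross-hybridising or shared, 1 member rose, and RRP1B differed by 0.40. Of the called members, TAF1D, NOB1 and NOP56 have only such probe sets, so they were absent from that fit and not tested in it. Losses not given with the genes were these: GAR1 (adjusted p = 0.0561), NOB1 (0.0586) and DDX21 (0.0602) did not pass with no floor, nor NCL (0.101), DDX21 (0.112) and NOB1 (0.0794) without an intensity trend, nor DDX21 under quantile normalization (0.0651) or without probe sets marked as cross-hybridising or shared (0.0939), nor NOB1 with array medians set equal (0.0570), nor GAR1 (0.0708), PNO1 (0.0524) and NOB1 (0.0680) in the Huh7.5.1 arrays alone. NOP56, DKC1 and MRTO4 were the 3 of 19 called members that passed in every alternative in which they could be tested. These were 14 for NOP56 and 15 for DKC1 and MRTO4. Fitted to the Huh7.5.1 arrays alone, 14 members fell and 2 rose. With a replicate block added to those arrays, 18 fell and 3 rose, and 3526 genes passed in all. Same-numbered arrays deviated together weakly (r = 0.18 across 11383 genes, which are not independent), and with 2 pairs the numbers were not taken as pairs. Between lines, members lower in Huh7.5.1 ranged from 7 to 9 with 1 array left out and were 7 on the deposited scale. The median of 0.46 became 0.34 with no floor, 0.36 with the mean of all probe sets, 0.66 on the deposited scale and 0.25 with all probe sets' medians set equal. Where it was not stated, the cause of a change was not tested.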
